A study of Mus musculus with 8 samples.

Results

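Kitl, the gene of Kit ligand or stem cell factor (SCF), and Kit, the gene of its receptor, are a ligand and receptor pair selected on their CPM values and log2 fold changes in these 8 libraries, and are 2 of the 52636 genes in the count table. Both had counts in every library and passed the filter on low counts. RNA was sequenced from mesenchymal stem/progenitor cells (MSPCs) of the bone marrow of 8 C57BL/6 mice, with 1 mouse per library. The 4 CTR mice were Flk2-cre+ Cxcr4fl/+ and the 4 cKO mice were Flk2-cre+ Cxcr4fl/fl, and the labels give the age of both groups as 6 weeks, whereas the methods give an older range for all mice. Flk2-cre, a transgene inserted in the Y chromosome, deletes floxed Cxcr4 from multipotent progenitors onward, so that MSPCs of both groups keep the gene. The CTR mice carry Cre and 1 floxed allele as well, and are not untreated wild types. MSPCs were sorted in repeated passes for PDGFRα and SCF-GFP, with exclusion of blood cells by Ter119 and CD45 and of endothelium by CD144 and CD31, and the green fluorescent protein (GFP) of the last gate is expressed from the Kitl locus. Cells were therefore admitted by a reporter of one of the genes described here, and the genotype labels do not list the reporter allele. The paper crosses cKO mice with KitlGFP/+ mice to lower SCF protein on niche cells. In that cross it reports SCF lowered to the wild-type level and hematopoietic stem cells reduced to physiological numbers. Kitl levels without the reporter were not measured here. The counts do not tell transcripts of the reporter allele from those of the other allele.

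SCF is made by stromal and endothelial cells of the bone marrow, is presented on the cell surface or shed by proteases, and is required by hematopoietic stem cells (HSCs). KIT is a type III receptor tyrosine kinase, related to the receptors for PDGF, CSF1 and FLT3 ligand. Binding of SCF dimerizes KIT and starts RAS, PI3K, SRC and STAT signaling, which phosphatases, CBL ligases and SOCS and Sprouty proteins restrain. KIT is best known from blood stem and progenitor cells, mast cells, melanocytes and germ cells, whereas MSPCs are known as a source of its ligand.

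Kitl (ENSMUSG00000019966) lies on chr10:100015630-100100416 and Kit (ENSMUSG00000005672) on chr5:75574916-75656722 of GRCm38, both on the plus strand. In GENCODE M21 the genes have 6 and 8 transcripts, and 0 other genes overlap either of them. Counts per gene pool transcripts that make different proteins, and the alternative stretches are shown because the values below cannot separate them. Exon 6 of Kitl-202 encodes the region with the main cleavage site of SCF, and is left out of Kitl-201, whose product stays mostly on the membrane. It covers 84 bases at chr10:100080857-100080940, all in capitals because the whole exon is alternative. Exon 9 of Kit-201 covers 194 bases at chr5:75638965-75639158, and its last 12 bases, in capitals, at chr5:75639147-75639158, are absent from Kit-204, which uses an earlier splice donor in the part of the gene that encodes the extracellular domain. Both exons are coding, read 5′ to 3′ from the annotated transcripts.
Kitl exon 6: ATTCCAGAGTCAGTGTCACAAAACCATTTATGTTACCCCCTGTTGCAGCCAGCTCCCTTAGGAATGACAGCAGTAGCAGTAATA
Kit exon 9: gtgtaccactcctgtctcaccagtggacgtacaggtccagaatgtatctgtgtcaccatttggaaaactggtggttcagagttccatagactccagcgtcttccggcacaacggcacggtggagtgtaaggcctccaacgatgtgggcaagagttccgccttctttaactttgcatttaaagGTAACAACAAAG

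Total counts ranged from 31047344 to 38216877 per library. Markers of MSPCs were abundant in every library, with 39700 to 50700 CPM (counts scaled to a common library size, with TMM factors) of Cxcl12 and 3590 to 5040 CPM of Lepr, the leptin receptor. Counts of Cxcr4 ran from 4 to 19 (CTR) and from 0 to 12 (cKO), and since its deletion is in blood cells they do not check the genotype labels. Sample titles carry numbers of 67 to 86 for replicates 1 and 3 of each genotype and of 26 to 32 for replicates 2 and 4, which the labels do not explain. No pair of libraries agreed within sampling noise (chi-square per degree of freedom at least 52.3). Across 14598 genes tested with edgeR's quasi-likelihood test and Benjamini-Hochberg adjustment, 0 passed an adjusted p of 0.05 (0%), and 646 had an unadjusted p under 0.05. DESeq2's likelihood ratio test called 22 genes, its Wald test 23, and limma-voom 0.

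Kitl was among the most abundant transcripts of MSPCs in both genotypes, at 722 ± 164 CPM in CTR (SD, n = 4) and 701 ± 134 CPM in cKO (SD, n = 4). The CTR libraries 1 to 4 had 758, 645.2, 551.1 and 931.9 CPM of Kitl. The cKO libraries 1 to 4 had 635.8, 763.4, 551.3 and 853.9 CPM. The genotypes overlapped over nearly their whole ranges, and the lowest value of each was almost the same. By its mean, Kitl ranked 137 among the 25681 genes with a count, and 138 in CTR and 140 in cKO. The log2 fold change of cKO against CTR was -0.04 (standard error 0.182, 95% confidence interval -0.45 to 0.36), a ratio of CTR to cKO of 1.03 with an interval of 0.777 to 1.36. Replicate mice of one genotype differed more than the genotype means, with a highest to lowest ratio of 1.69 in CTR and 1.55 in cKO and a coefficient of variation of 22.7% and 19.1%. Counting error was small beside this spread, at 0.536 to 0.751% of the value if each count is an independent read.

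Kit was detected in the MSPC library of every mouse. Its level was lower in cKO, at 130 ± 38.6 CPM in CTR (SD, n = 4) and 46.4 ± 16.2 CPM in cKO (SD, n = 4). The CTR libraries 1 to 4 had 80.26, 158.1, 118.1 and 162.5 CPM of Kit, from 2481 to 6073 counts. The cKO libraries 1 to 4 had 39.97, 34.89, 40.31 and 70.38 CPM, from 1224 to 2706 counts. All 4 cKO libraries lay below all 4 CTR libraries, and the gap between the nearest, cKO4 and CTR1, was 9.89 CPM. This order was shown by 1.29% of the genes tested, and 2.62% had the genotypes apart in either direction, and since Kit was chosen with this contrast in view nothing is read from it. The log2 fold change was -1.48 (standard error 0.27, 95% confidence interval -2.08 to -0.88), or 2.8-fold lower in cKO with an interval of 1.84 to 4.24. In bulk RNA, fewer cells with Kit transcripts and fewer transcripts per cell cannot be told apart. Nor can Kit transcripts of MSPCs and of other cells carried through the sort. The paper reports lymphoid-primed multipotent progenitors and other progenitors reduced in cKO marrow, and their part in the level of Kit was not tested.

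By its mean, Kit ranked 1264 among the 25681 genes in CTR and 4199 in cKO. At a mean level of 10 CPM or more there were 9406 genes, of which 17 had a log2 fold change of -1 or lower, and Kit ranked 3 from the lowest. The median absolute log2 fold change of all genes tested was 0.141. Kit also varied among mice of one genotype, by 2.02 times from lowest to highest in either group. Its biological coefficient of variation in edgeR was 0.272, against 0.184 for genes of its level, while that of Kitl was 0.198 against 0.182. In the plot of both genes by genotype, Kitl points intermix and Kit points separate.

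**Figure D1:**
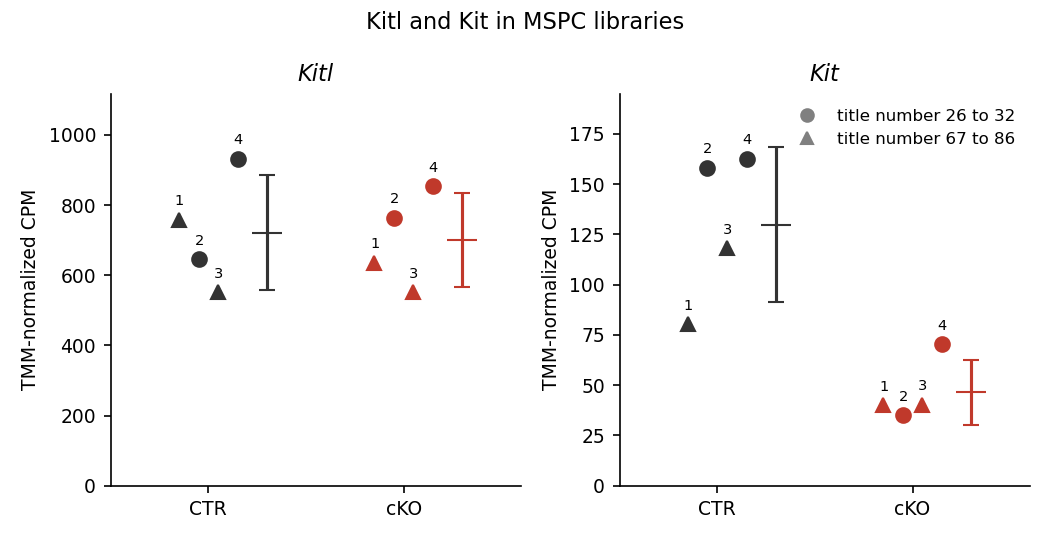
TMM-normalized CPM of Kitl and Kit on linear axes from 0, with 1 numbered point per library and the mean ± SD of 4 libraries beside each group, and symbols for the range of title numbers. Kitl lies between 551.1 and 931.9 CPM in CTR and 551.3 and 853.9 CPM in cKO, and Kit of the cKO libraries, at most 70.38 CPM, lies below that of every CTR library.

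Kit was lower in cKO within both ranges of title numbers. For 67 to 86 the mean was 99.2 CPM in CTR and 40.1 in cKO, a difference of mean log2 CPM of -1.28 (n = 2 each). For 26 to 32 it was 160 CPM in CTR and 52.6 in cKO, a difference of -1.69 (n = 2 each). Kitl went in opposite directions in these ranges by small amounts, with -0.13 for 67 to 86 (655 and 594 CPM) and 0.06 for 26 to 32 (789 and 809 CPM). Between the ranges themselves, Kitl averaged 799 CPM for 26 to 32 and 624 CPM for 67 to 86, more than it differed between genotypes.

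Per kilobase of exon, an approximate way to compare levels of different genes, the ligand was in excess of the receptor transcript in every mouse. Lengths were unions over all annotated transcripts, 5911 bases for Kitl and 8911 for Kit, and the size of the ratio depends on them. The ratio of Kitl to Kit per kilobase was 14.2, 6.15, 7.03 and 8.65 in CTR libraries 1 to 4. In cKO libraries 1 to 4 it was 24, 33, 20.6 and 18.3. The means were 9.02 ± 3.63 and 24 ± 6.45 (SD, n = 4 each), and the groups did not overlap, which follows from the values of Kit above and adds no separate evidence. Across the 8 libraries the genes did not vary together closely, with Pearson's r of 0.22 and Spearman's rho of 0.17 for log2 CPM. Without CTR4 and CTR3, the libraries farthest from the median of Kitl, r was 0.14 and rho 0.03 (n = 6). With genotype means subtracted, r was 0.34, and with means of the title number ranges subtracted it was 0.02. These are descriptions of 8 libraries that share a scaling per library, and the relation entered the choice of the pair.

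**Figure D2:**
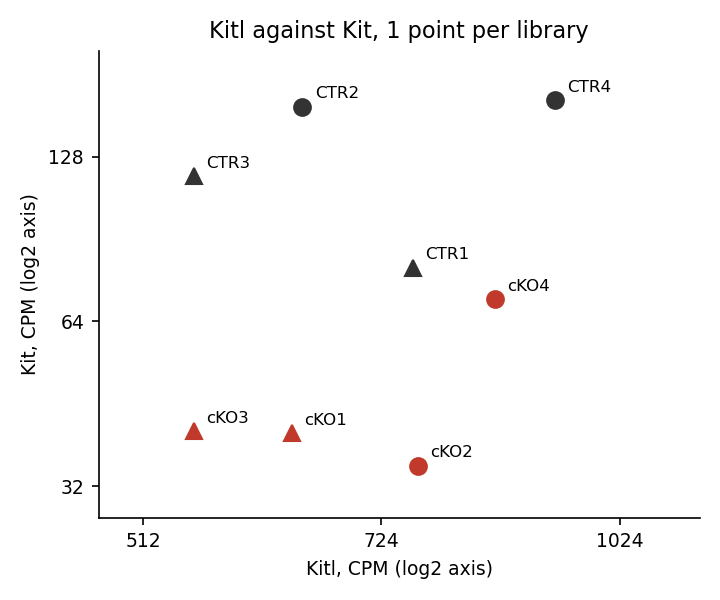
Kit against Kitl in TMM-normalized CPM on log2 axes, with 1 labelled point per library, CTR in black and cKO in red, circles for title numbers 26 to 32 and triangles for 67 to 86. The cKO points lie lower on the Kit axis and span the same part of the Kitl axis, and r over all 8 points is 0.22.

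Among type III receptors, Kit came next by level per kilobase after both PDGF receptors, and the ranges of neighbors in this order did not overlap. Pdgfrb had 425 CPM per kilobase on average over the 8 libraries (367 to 476) and Pdgfra, whose protein was a sort gate, 64.6 (55.7 to 82.1). Kit followed with 9.88 (3.92 to 18.2), which is 14.6 in CTR and 5.21 in cKO. Csf1r, the receptor of CSF1 and IL-34 on macrophages, had 1.45 (0.83 to 1.97), and Flt3, the receptor of FLT3 ligand on early progenitors, 0.174 (0.0545 to 0.374). Their log2 fold changes, on a scale where Kit was at -1.48, were 0.43 for Csf1r (standard error 0.262), 0.11 for Pdgfra (standard error 0.121), 0.07 for Pdgfrb (standard error 0.111) and -0.15 for Flt3 (standard error 0.678), and 0 of these 4 passed the threshold. The median of the 4 was 0.09, beside 0.00 (-0.00133) for all genes.

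Among the ligands per kilobase, Kitl came next after Il34 and Csf1, with 120 CPM (93.2 to 158). Il34, the other ligand of the CSF1 receptor, had 235 (200 to 282) and Csf1 188 (164 to 219), and these overlapped with each other and not with Kitl. The PDGF ligands Pdgfd (16.8) and Pdgfa (11.6) and the FLT3 ligand gene Flt3l (3.51) were lower. Pdgfb had 0 counts in all 8 libraries and Pdgfc at most 53, with 0 in some libraries of both genotypes. The 5 ligands tested other than Kitl had log2 fold changes of 0.14 (Il34), 0.12 (Pdgfa), 0.04 (Csf1), -0.05 (Pdgfd) and -0.14 (Flt3l), and 0 of the 5 passed the threshold. Their median was 0.04. Like Kitl, each of them overlapped between genotypes.

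**Figure D3:**
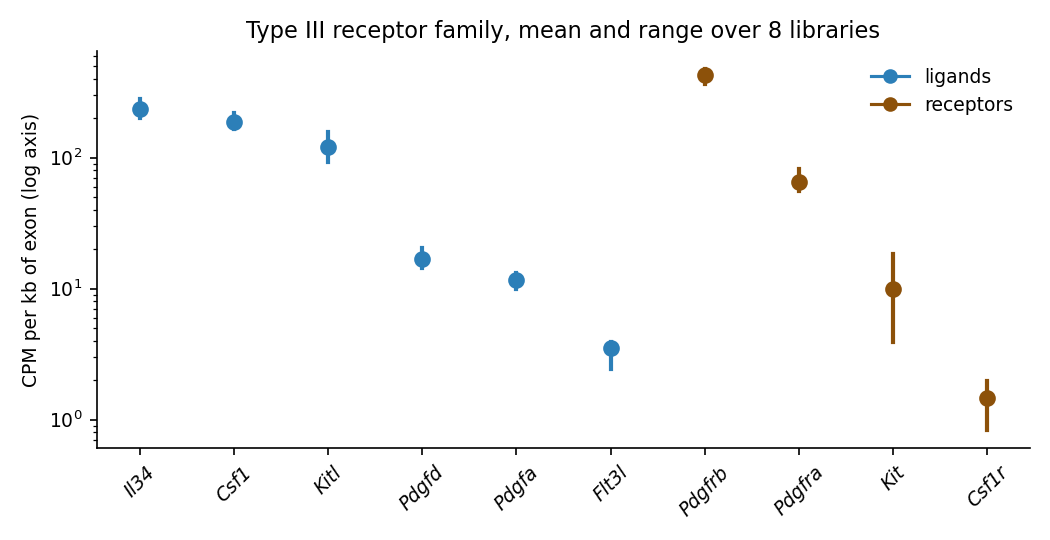
CPM per kilobase of exon on a log axis for ligands (blue) and receptors (brown) of the type III family with at least 100 counts in some library, as the mean (point) and the lowest to highest of 8 libraries (line). Kitl stands at 120 and Kit at 9.88, and the line of Kit, from 3.92 to 18.2, is the longest of those drawn.

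The lists around the pair hold genes that cut SCF or KIT from the cell surface, that inhibit those proteases, and that carry or restrain the signal of KIT. Over the 5 lists of family, shedding and signaling genes, 71 of 84 genes other than Kitl and Kit were tested, 0 passed the threshold, and 4 of the 84 had no count. Of the 71, 28 were higher and 43 lower in cKO (60.6% lower, against 50.2% of all genes tested), with a median log2 fold change of -0.03. The genotypes were apart for 0 of the 71, beside 2.62% of all genes tested. At an unadjusted p under 0.05 in edgeR there were 2 of the 71, both in positive KIT signaling, beside 646 of all 14598 genes tested.

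Of 17 shedding genes, 13 were tested, with 6 higher and 7 lower in cKO and a median of -0.01 (-0.005). The lowest was Mmp9, the protease linked to release of SCF in marrow, with 6.24 ± 2.95 CPM in CTR and 3.99 ± 3.73 in cKO (SD, n = 4 each) and a log2 fold change of -0.64 (standard error 0.734). Timp1, an inhibitor of metalloproteases, followed at -0.34. The highest were Mmp14 at 0.11, a membrane protease with 604 ± 34.8 CPM in CTR and 652 ± 33.1 in cKO, and Timp3 at 0.10. Cma1, the chymase that cleaves SCF in mast cells, had 0 counts in every library.

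Of 40 positive signaling genes, 35 were tested, with 10 higher and 25 lower in cKO and a median of -0.05. The adaptor Gab2 was at 0.24 (standard error 0.272). The GTPase Nras was at -0.43 (standard error 0.437) and the adaptor Grb2 at -0.38 (standard error 0.213). Ptpn11, the phosphatase SHP2 that passes the signal on to RAS, had 63.3 ± 7.92 CPM in CTR and 51.5 ± 4.93 in cKO (SD, n = 4 each), a log2 fold change of -0.30 (standard error 0.121), and was named after its values were seen because its unadjusted p in edgeR was under 0.05. Of 16 negative signaling genes, 14 were tested, with 6 higher and 8 lower and a median of -0.02. The Sprouty gene Spry2 (standard error 0.322) and the phosphatase gene Ptpn6 (standard error 0.675) were lowest, both at -0.44. Ptpn6 had only 12 to 113 counts per library. Socs6, whose product binds activated KIT, and the adaptor Sh2b2 were highest, at 0.28 (standard error 0.359) and 0.10 (standard error 0.267).

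**Figure D4:**
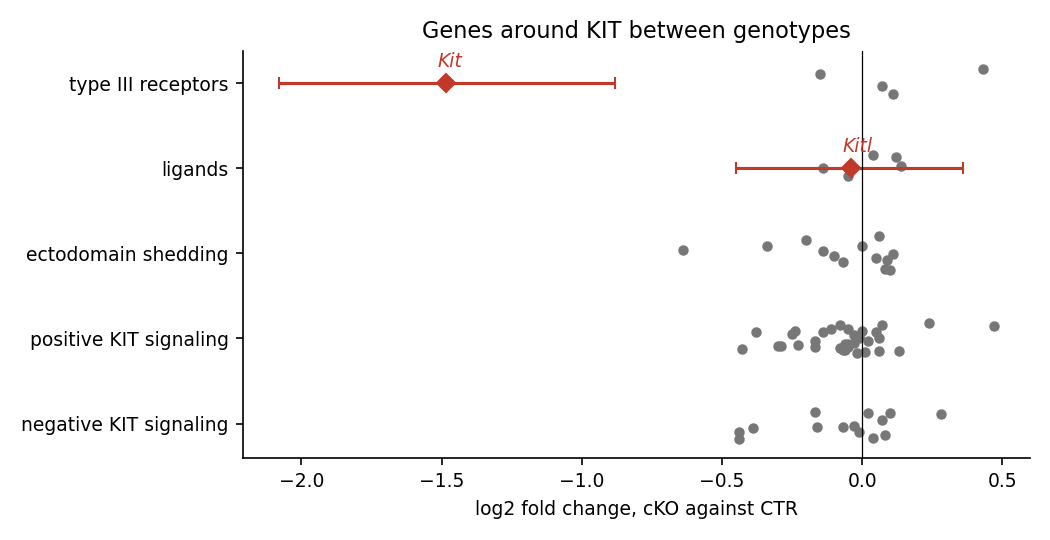
Log2 fold change of cKO against CTR from edgeR for the tested genes of 5 lists (grey points, spread vertically for legibility), with Kit and Kitl as red diamonds and their 95% confidence intervals. The lowest grey point is Mmp9 at -0.64, and Kit at -1.48 lies below all grey points while Kitl at -0.04 lies among them.

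Markers of blood stem and progenitor cells, mast cells, melanocytes and endothelial cells were low, and their sums overlapped between genotypes. The 12 blood stem and progenitor cell markers summed to 13.3 to 22.6 CPM in CTR and 11.5 to 21.1 in cKO. Per library, Kit alone was above this sum throughout. Most came from Hlf (7.15 ± 3.42 CPM in CTR and 7.45 ± 2.34 in cKO) and Coro1a (4.29 ± 1.93 and 2.44 ± 1.65; SD, n = 4 each). Of the 4 markers tested, 2 were higher and 2 lower in cKO. Ptprc, the gene of the gate CD45, gave at most 0.98 CPM, with Cd34 at 0. Of 9 mast cell markers, 8 had no count, the defining Cpa3, Ms4a2 and Fcer1a among them, and Hdc gave the sum of 0 to 2.46 CPM in CTR and 0.546 to 2.31 in cKO. Of 7 melanocyte markers, 4 had no count, Tyr, Tyrp1 and Dct included, and the sum, mostly of Pmel and Mitf, was 2.94 to 4.54 CPM in CTR and 1.47 to 6.89 in cKO. The 8 endothelial markers, led by Emcn and Flt4, with Pecam1 at most 1.61 CPM and Tek at 0, summed to 5.05 to 14.2 and 5.36 to 8.95 CPM.

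Erythroid and megakaryocyte markers were more abundant, and their mean was higher in cKO, where Kit was lower, without passing the test. The 12 genes, mostly the hemoglobin genes Hbb-bs and Hba-a1, summed to 188, 145, 160 and 75.6 CPM in CTR libraries 1 to 4, and to 215, 156, 264 and 168 CPM in cKO libraries 1 to 4. All 10 tested were higher in cKO, with a median log2 fold change of 0.44, and 0 passed the threshold. Of all 14598 genes tested, 7267 were higher in cKO. Of the 2 not tested, Gp9 had 0.148 ± 0.217 CPM in CTR and 0.315 ± 0.325 in cKO, and the megakaryocyte gene Pf4 went the other way, with 2.29 ± 2.95 CPM in CTR and 0.741 ± 0.268 in cKO (SD, n = 4 each). Epor, the erythropoietin receptor gene, was above every CTR library in all 4 cKO libraries (16.1 ± 1.6 and 21.5 ± 4.38 CPM; SD, n = 4 each). This order was shown by 195 of the 14598 genes tested, and Epor was picked after its values were seen. The summed values of the genotypes overlapped (142 ± 47.8 and 201 ± 49.2 CPM; SD, n = 4 each), and the difference of 58.4 CPM had p = 0.171 in a two-sided exact permutation test, and 0.855 adjusted over the 5 lists, where 4 libraries against 4 cannot give less than 0.0286. Gata1, the regulator of both lineages, was at 1.97 ± 1.34 and 2.03 ± 0.996 CPM. The sums of the other 4 lists differed by at most 0.766 CPM between genotype means, with exact permutation p-values of 0.686 to 1, all 1 when adjusted. Across the 8 libraries the summed erythroid and megakaryocyte markers had r = -0.75 with Kit. For the other sums r with Kit was 0.43 (blood stem and progenitor), 0.27 (melanocyte), 0.04 (endothelial) and -0.19 (mast cell). The part of these markers in the level of Kit was not tested.

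**Figure D5:**
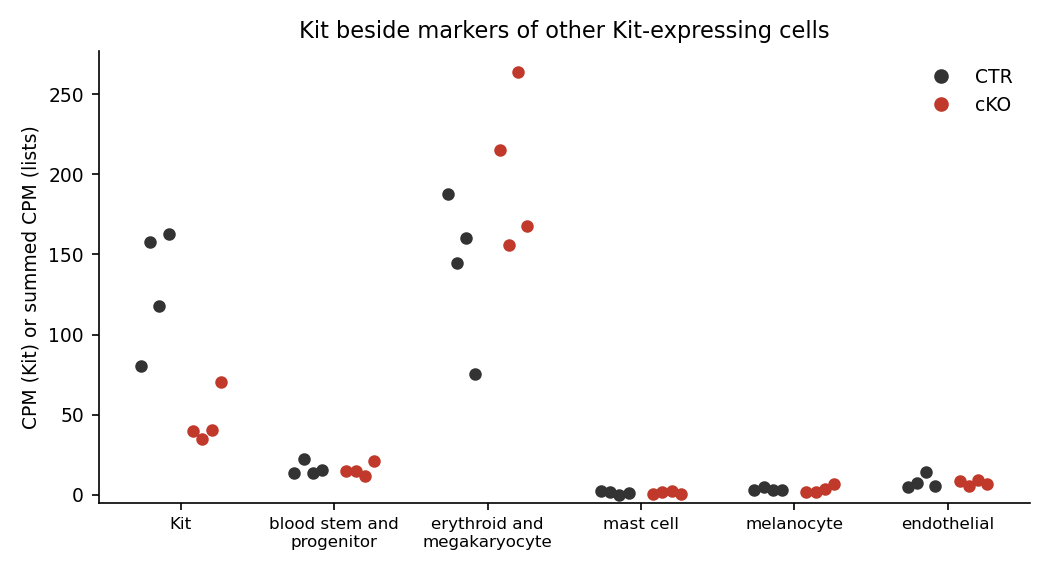
CPM of Kit, and summed CPM of marker lists of other cell types, on a linear axis with 1 point per library, CTR in black and cKO in red. Kit is lower in cKO, blood progenitor, mast cell, melanocyte and endothelial sums stay at or below 22.6 CPM in both genotypes, and erythroid and megakaryocyte sums are 75.6 to 188 CPM in CTR and 156 to 264 in cKO.

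Of 9405 genes at a mean level of 10 CPM or more, those nearest to Kitl in log2 CPM over the 8 libraries were Zeb2 (Pearson's r = 0.98), a transcription factor of mesenchymal cells, Eea1 (0.97), Bckdk (0.96), Gm15261 (0.95) and Foxn3 (0.95). Their log2 fold changes between genotypes were small as that of Kitl was, from -0.12 (Bckdk) to 0.02 (Foxn3), which follows largely from their choice by likeness. With genotype means subtracted r stayed at 0.95 to 0.98. Zeb2 was highest in CTR4 (420 CPM) and lowest in cKO3 (276 CPM), libraries in which Kitl was also highest and nearly lowest.

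Those nearest to Kit were Ccl9 (r = 0.98), a chemokine of the CC family, Impa1 (0.97), Serpinf1 (0.95), which encodes the secreted factor PEDF, mt-Co1 (0.95), a mitochondrially encoded subunit of cytochrome oxidase, and Metap2 (0.93). Ccl9 had 110, 163, 143 and 139 CPM in CTR and 76.7, 73.7, 78 and 99.5 CPM in cKO libraries 1 to 4, so that CTR1 was lowest of its group and cKO4 highest, as for Kit. Between genotypes it was at -0.76 on the log2 scale (standard error 0.141, adjusted p = 0.894 in edgeR's quasi-likelihood test). Within genotype r with Kit was 0.92 for Ccl9 and Metap2, 0.89 for Impa1, 0.78 for Serpinf1 and 0.76 for mt-Co1. There were 13 genes with r of at least 0.9 to Kit and 24 to Kitl. Likeness over 8 libraries is given as a description. The genotype differences of genes chosen by it follow largely from that choice and add no separate evidence.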

How the data were processed

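RNA of MSPCs from 4 CTR and 4 cKO mice was measured in 8 libraries after poly(A) selection. According to the methods, the authors trimmed reads, aligned them with HISAT2 to GRCm38 (mm10) and counted them per gene with HTSeq-count. They deposited the raw counts without normalization, and the strand setting is not given in the sources used here. Of the deposited counts of 1 to 20, 58.6% were odd, against 50% above 1000, which was not explained, and Kit and Kitl had counts above 1000 in every library. The 52636 identifiers were matched to GENCODE M21 on GRCm38 (52403 with a symbol), a release other than the one the methods name, and exon lengths are unions over its transcripts.

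TMM factors scaled the counts, and the 14598 genes that had counts in all 8 libraries were fitted with edgeR 4.0.16 (glmQLFit, glmQLFTest, Benjamini-Hochberg, threshold 0.05) in R 4.3.3, without covariates. The methods correct for a batch that the labels do not define, so none was used. Log2 CPM has a prior count of 2. Marker sums were compared by two-sided exact permutation over 70 assignments. Labels number the replicates and do not say which batch or litter a number marks. Intervals are at 95%, and counting error covers sampling only. The fit was tested on simulated data with less spread among libraries than the deposited counts have. No result here rests on that test.

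The members and lists were chosen with earlier results of these data known, so Kitl and Kit are given no p. Named were Kitl, Kit, all family genes, in the shedding and signaling lists genes past the threshold or otherwise the 2 highest and 2 lowest, in marker lists the first and the 2 most abundant, Cxcr4, and the 5 genes nearest to each member by Pearson's r. Other genes named (Ptpn11, Cma1, Epor, Gp9, Pf4 and further markers and neighbors) were picked once values had been seen. The alternatives tried were RLE, upper quartile and total count scaling, 2 other filters, DESeq2 1.42.0 (likelihood ratio and Wald tests), limma-voom (limma 3.58.1), title number as a term, the replicate number as a block, and each library left out. Values of 1 gene of the signaling lists are not reported here. Single-cell data were not analysed here.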

Additional observations from a re-analysis of the deposited data

Results flagged for a closer look

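Kit in cKO4 stood apart from the other cKO libraries. Its 70.4 CPM was 0.847 of the group's whole range above the next library, at 40.3 CPM, which is over Dixon's critical value at 95% for 4 samples. Among 34 groups of values examined in this way, 1 exceeded the critical value, where chance gives about 1 in 20 (1.7). Without cKO4 the log2 fold change of Kit was -1.76, against -1.48 with it. cKO4 also had the highest sums of blood progenitor (21.1 CPM) and melanocyte markers (6.89 CPM) of its genotype. Its sum of mast cell markers (0.546 CPM) was the lowest. Its erythroid and megakaryocyte sum (168 CPM) and endothelial sum (6.58 CPM) lay within the range of the other cKO libraries. The part of these markers in its level of Kit was not tested.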

How the results depend on the processing

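The log2 fold change of Kit was -1.49 to -1.46 under the other scalings, filters, tools and covariates, and -1.76 (without cKO4) to -1.36 (without CTR4) with each library left out. That of Kitl was -0.05 to -0.03 under the former, and -0.16 (without CTR3) to 0.10 (without CTR4) with each library left out, so that its sign rested on single libraries, also without cKO3 (0.06). The count of genes past the threshold was 1 with filterByExpr, 1 without a filter, 22 with DESeq2's likelihood ratio test, 23 with its Wald test and 47 with the likelihood ratio test and title number as a term, the last chosen after seeing the data, and 0 in the other fits, each library left out included (lowest 0, highest 0). Family, shedding and signaling genes past the threshold, with Kitl and Kit left out of the count, were 0 in all 20 fits. With a replicate block, 0 genes passed and 812 had an unadjusted p under 0.05, with Kit at -1.48 and Kitl at -0.03. Deviations of same-numbered libraries correlated at 0.131, 0.176, 0.0844 and 0.0572, which does not establish pairs. The r of Kitl and Kit ran from -0.11 (without CTR4) to 0.44 (without CTR3). Leaving out single libraries took the difference of summed markers, in CPM, from -2.64 to 1.34 for blood progenitor (positive without CTR2, 1.34, and without cKO3, 0.56), -0.451 to 0.368 for mast cell (positive without CTR1, 0.368, CTR2, 0.111, cKO1, 0.193, and cKO4, 0.256), -1.35 to 0.459 for melanocyte (positive without CTR2, 0.19, cKO1, 0.459, and cKO2, 0.398), -1.52 to 1.53 for endothelial (positive without CTR3, 1.53, and without cKO2, 0.119) and 36.2 to 73.6 for erythroid and megakaryocyte markers, with no p under 0.114. Depth does not limit Kit or Kitl, with at least 1224 counts in each library, and limits markers with a few counts.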

Other observations

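Genes beside Kit and Kitl were looked up after the values of both were seen. Those that were fitted (Pdgfra, Srd5a3 and Dusp6) did not share the lower level of Kit, and the others had too few counts to compare. Pdgfra ends 377 kb before Kit and had 623 ± 52.9 CPM in CTR and 672 ± 102 in cKO (SD, n = 4 each; log2 fold change 0.11). Kdr, the VEGF receptor gene of endothelial cells 276 kb after Kit, had 0 to 39 counts, and Gsx2, 497 kb before Kit, had 0. Srd5a3, 484 kb after Kit, was at 54.2 ± 2.6 and 52.9 ± 9.17 CPM (log2 fold change -0.04). Around Kitl, Dusp6, the phosphatase of ERK kinases, lies 748 kb before it at 62.8 ± 17.1 and 56.1 ± 5.88 CPM (log2 fold change -0.16), and the nearer Csl, Gm4301 and Gm4302 had at most 20 counts.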
